A study of Saccharomyces cerevisiae with 24 samples.

Results

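The sphingolipid synthesis genes followed here are LCB1, LCB2, TSC10, SUR2, LAG1, LAC1, AUR1, ORM1, ORM2 and ISC1 of baker's yeast, Saccharomyces cerevisiae. They are 10 of the 5449 yeast genes named on the array, were chosen by name from the pathway, and are each read by 1 probe set that the platform annotation assigns to that gene alone. Transcript levels were measured in strain S288C, a haploid laboratory strain, grown in synthetic SD medium at 28 °C to an optical density of 1. From there the culture was moved to 37 °C (heat) or to 10 °C (cold), or stayed at 28 °C (control). The RNA of each series was sampled at 0, 15, 30 and 60 min and at 2, 4, 8 and 24 h, giving 24 arrays with no repeated time. Strain, medium and growth before the shift were the same in the 3 series, and the labels name no mutation or added agent. Heat samples were amplified with a Roche kit joined to an Ambion transcription step, and control and cold samples with the Ambion kit alone, so that the kit and the heat series cannot be told apart.

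Sphingolipids are membrane lipids built on a long-chain base. Serine palmitoyltransferase, a complex of Lcb1 and Lcb2, joins serine to a fatty acyl-CoA, Tsc10 reduces the product to dihydrosphingosine, and Sur2 hydroxylates the base to phytosphingosine. The ceramide synthases Lag1 and Lac1 attach a very long chain fatty acid to the base, and Aur1 transfers the inositol phosphate head group that makes the first complex sphingolipid. Orm1 and Orm2 are paralogous membrane proteins that bind and restrain serine palmitoyltransferase until kinases downstream of the TORC2 complex phosphorylate them. Isc1, a phospholipase C, splits complex sphingolipids back to ceramide. In yeast, heat is known for a fast, transient increase in long-chain bases and ceramides, much of which is controlled at the level of the enzymes and the Orm proteins.

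All values below are on a log2 scale, on which a difference of 1 is 2-fold, and were summarised by the submitters with RMA, a method that makes the brightness distributions of arrays alike. A change is the level minus the level on the same series' own 0 min array. Levels of different genes come from different probes and are not set against each other. On the 0 min arrays the cold series resembled the control (r = 0.990 across genes), with 0.551% of all genes at least 2-fold apart, whereas the heat series did not (r = 0.703), with 44.0% at least 2-fold apart. Among the 10 genes 4 were at least 2-fold apart between heat and control at 0 min, with heat minus control at -2.22 for LCB1, -1.32 for AUR1 and 1.03 for ISC1, and with ORM2 under the dim level given next in heat, so that only changes within the heat series are read. Within each series the chaperone gene HSP104 followed the labels, going from 10.76 at 0 min to 13.29 at 30 min of heat and from 13.40 to 11.72 in cold. The control 30 min array read 13.54. Heat minus control was already -2.61 for HSP104 at 0 min, so this level is not set against the heat one. At 30 min of heat and of cold HSP26 had changed by 2.88 and -1.62, and NSR1 by -4.01 and 1.14. The 95th percentile of the probe sets of the other species on the array, 6.53, marks a dim level, and ORM2 lay below it on 7 of the 8 heat arrays while the other 9 genes were above it on all 24. Markers of mating type α were high at 0 min in all 3 series. In control, heat and cold MF(ALPHA)1 read 14.17, 12.85 and 14.19, MF(ALPHA)2 14.27, 13.20 and 14.20, and STE3 12.99, 13.88 and 13.0. By 24 h all 3 were at least 2-fold lower in control and in heat, and 1 of the 3 in cold. All 3 genes of the other mating type were higher at the end of the cold series than at its start: MFA1 went from 8.38 to 13.09, MFA2 from 7.04 to 10.78 and STE2 from 7.66 to 10.22. In the control all 3 were also at least 2-fold higher at 24 h, with MFA1 going from 8.5 to 10.3, MFA2 from 7.2 to 8.5 and STE2 from 7.6 to 8.9. In heat 1 of the 3 was above its start at 24 h. In a bulk culture, fewer cells that express a gene and less RNA per cell cannot be told apart.

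**Figure D1:**
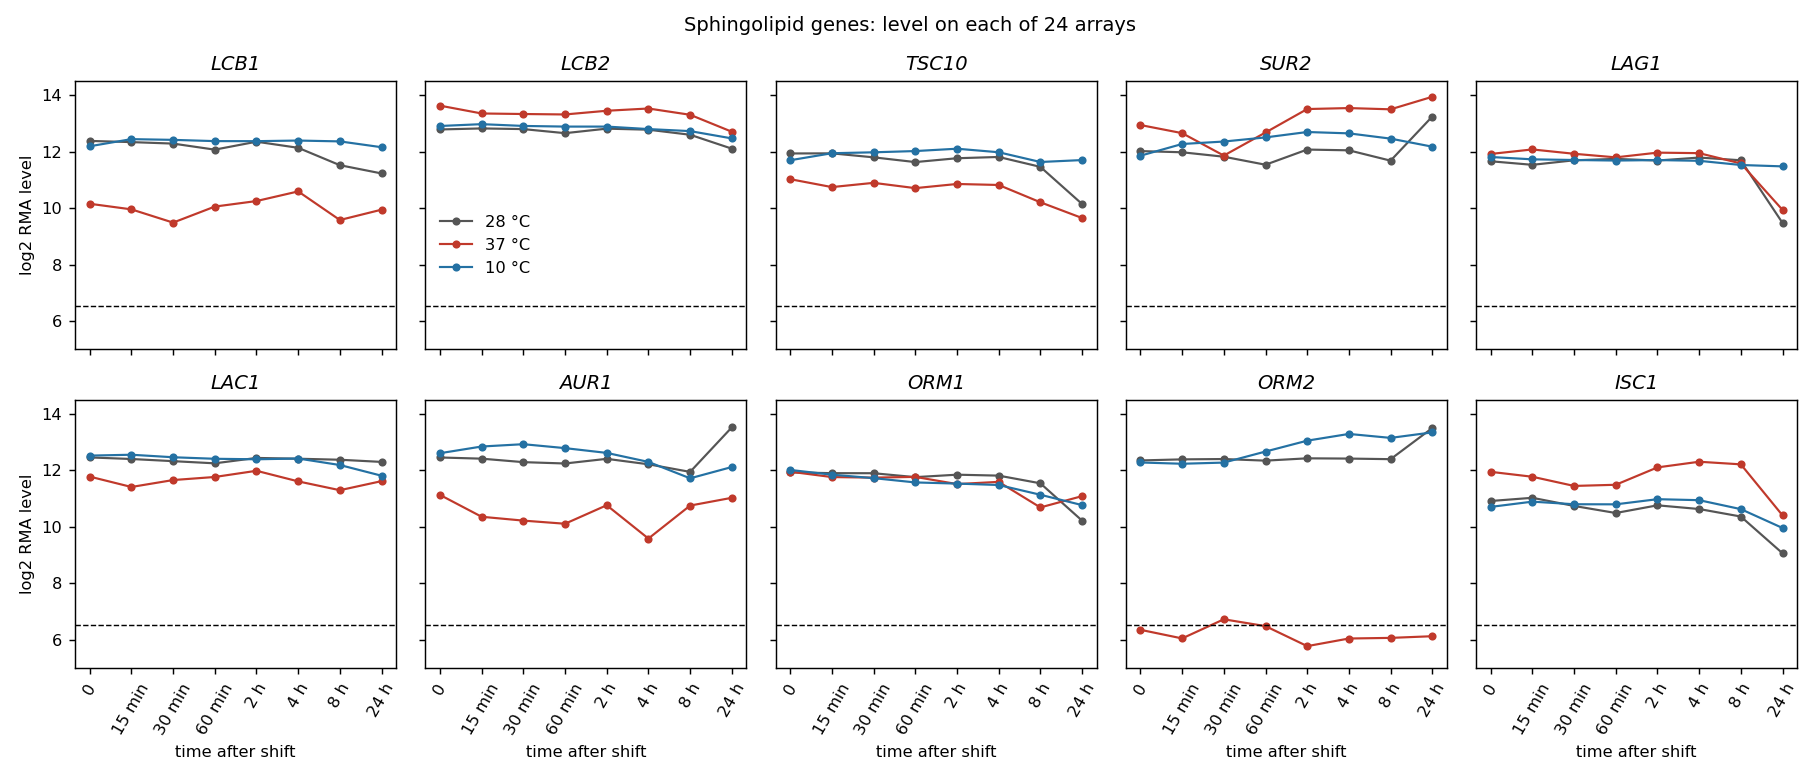
Log2 RMA level (vertical axis) of each of the 10 genes against time after the shift (horizontal axis, equal steps between sampled times), with 1 point per array and 1 line per series (grey 28 °C, red 37 °C, blue 10 °C). The dashed line is the dim level of 6.53, and ORM2 lies near it along the heat series, between 5.78 and 6.73, under it on 7 of the 8 arrays.

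At most 1 of the 10 genes was 2-fold from its own start on any array through 8 h, and most genes on the array also stayed within 2-fold. Counting single arrays, none of the 10 genes was 2-fold from its own start on any control array up to 8 h, against 0.0%, 0.0184%, 0.459%, 0.0551%, 0.569% and 5.18% of all genes on those 6 arrays in time order. In heat, 0 of 10 were 2-fold away at 15 min (7.49% of all genes), 1 at 30 min (19.4%) and 1 at 60 min (16.0%). Later heat arrays held 0 at 2 h (6.37%), 1 at 4 h (6.96%) and 1 at 8 h (10.8%). In cold, the counts were 0 at 15 min, 30 min, 60 min and 2 h (4.83%, 8.63%, 10.1% and 9.87% of all genes), 1 at 4 h (15.3%) and 0 at 8 h (25.1%). The genes behind these counts were SUR2 and AUR1 early in heat, AUR1 at 4 h and ORM1 at 8 h of heat, and ORM2 in cold. The 24 h arrays differed from this: 8 of the 10 genes were 2-fold from their start in the control (40.8% of all genes), 3 in heat (33.8%) and 2 in cold (26.9%). In the control at 24 h SUR2, AUR1 and ORM2 were the higher ones and LCB1, TSC10, LAG1, ORM1 and ISC1 the lower ones. The heat genes were TSC10, LAG1 and ISC1, all lower, and the cold genes were ORM2, higher, and ORM1, lower.

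**Figure D2:**
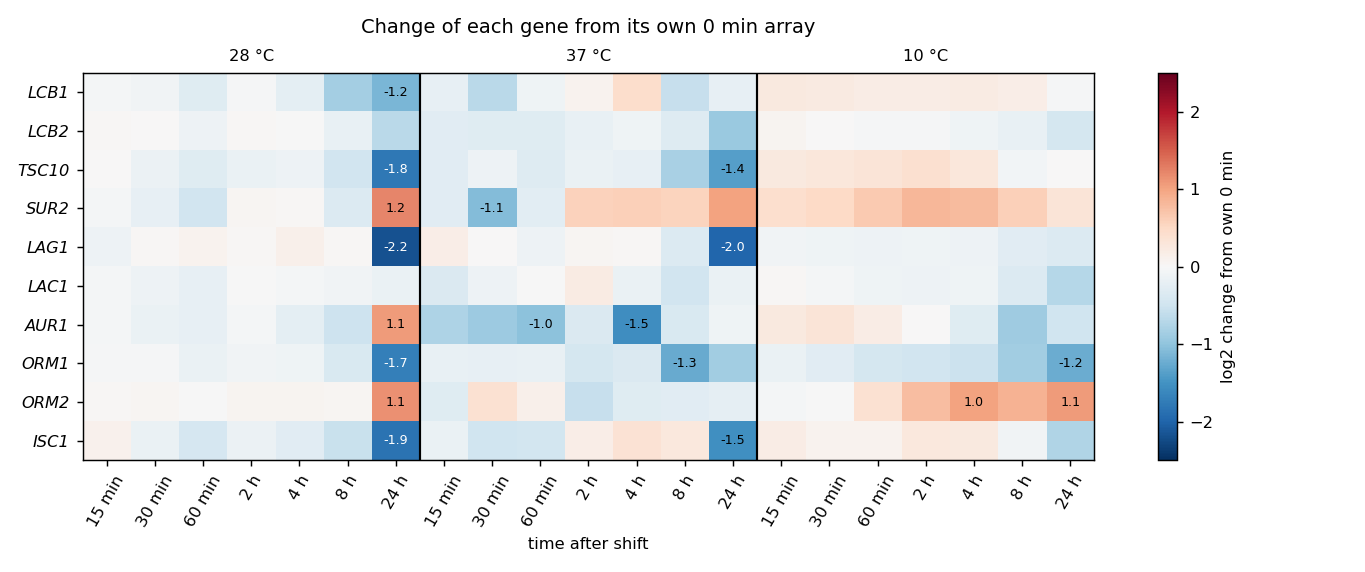
Colour map of the log2 change from the own 0 min array, with genes in rows, the 7 later times of each series in columns, red for higher and blue for lower. Numbers stand in cells at least 2-fold from the start, 8 of which are in the control column at 24 h, 7 in the heat series and 3 in the cold series.

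With no repeated time, tests used the times of a window in place of replicates: early held 15, 30 and 60 min, late held 2, 4 and 8 h, and the 24 h arrays are described without a test. In the limma fit to all 24 arrays, the early and late comparisons of heat and of cold each give the change from 0 min beyond the change of the control over the same times. Adjusted p-values (Benjamini-Hochberg, all 5449 genes) were called at 0.05, and they do not cover differences between independent cultures. By this test none of the 10 genes was called early in heat (0.0184% of all genes called), late in heat (0.0551%), early in cold (0.0%) or late in cold (0.0%). At an unadjusted p under 0.05 the same limma comparisons held 0, 1, 0 and 2 of the 10 genes, against 455, 300, 519 and 1143 of all genes. When the late window was set against the early window, which leaves out the 0 min arrays, 0 of 10 genes was called in heat (0.147%) and 1 of 10, ORM2, in cold (24.7%). At an unadjusted p under 0.05 those comparisons held 3 and 1 of the 10, against 20.2% and 39.9% of all genes. Set directly against each other, heat and cold differed in 0 of 10 genes early (16.2%) and in 1 of 10, again ORM2, late (6.5%). At an unadjusted p under 0.05 these held 3 and 2 of the 10, against 33.1% and 24.8% of all genes. The share of the 10 genes called was thus near or under that of all genes in each of the 8 comparisons except heat against cold late, where the 1 gene is the one with a dim probe set in heat.

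**Figure D3:**
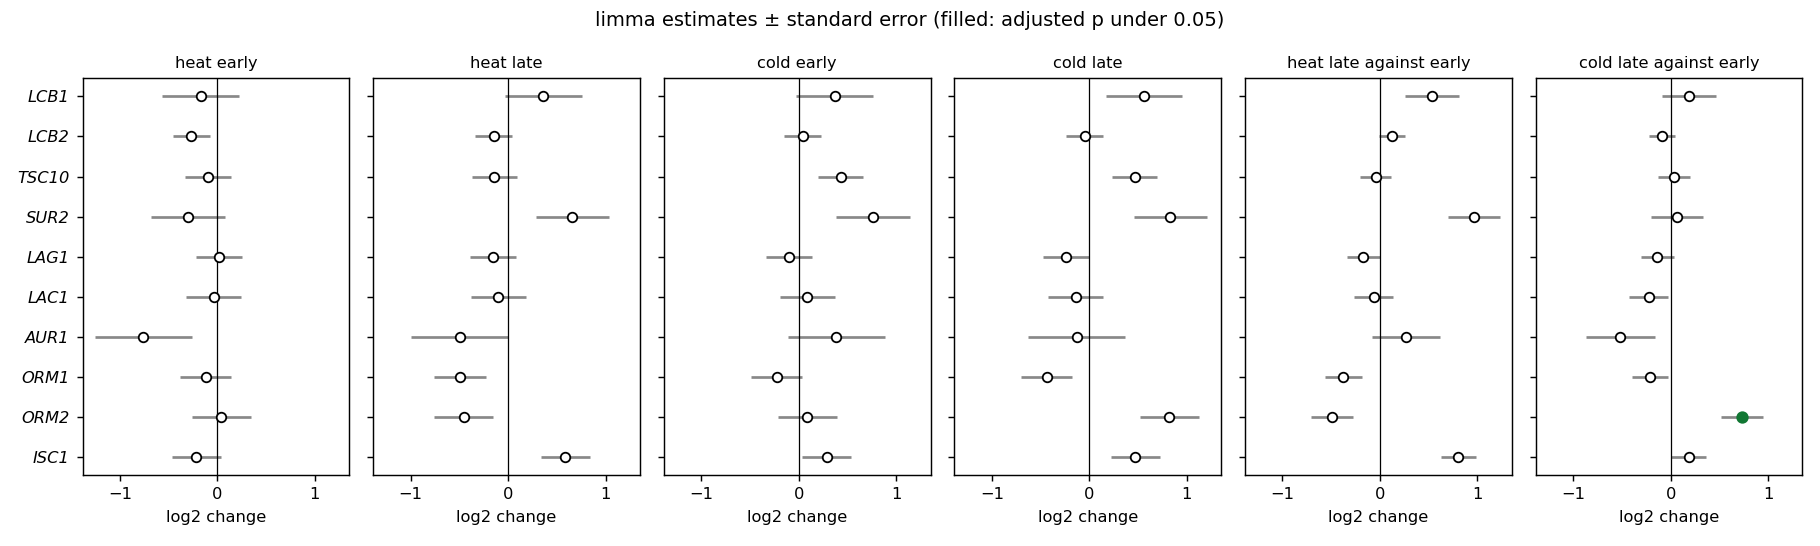
limma estimates (horizontal axis, log2 change; bars, 1 standard error) for the 10 genes in 6 comparisons, filled where the adjusted p is under 0.05. The 1 filled point is ORM2 in cold late against early, at 0.74.

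Serine palmitoyltransferase and the reductase that follows it, the entry to the pathway, showed no called difference in any comparison. In the cold LCB1 and TSC10 stayed near or above their start through 24 h, while both were lower at 24 h in the control. LCB1 (YMR296C), a subunit of serine palmitoyltransferase, read 12.19, 12.44, 12.42, 12.37, 12.37, 12.39, 12.36 and 12.16 over the 8 cold arrays in time order. In the control the same gene read 12.38, 12.34, 12.29, 12.07, 12.35, 12.14, 11.52 and 11.23. The cold arrays thus stayed between 12.16 and 12.44, while the control was 1.15 lower at 24 h than at 0 min. In the cold late comparison LCB1 stood 0.56 ± 0.39 (SE) higher relative to the control, which did not pass (adjusted p = 0.457). In heat LCB1 read 10.16, 9.96, 9.49, 10.06, 10.25, 10.59, 9.58 and 9.95, with its lowest array at 30 min and no steady direction. All 8 heat values lay below all 16 values of the other series, an offset that was already there at 0 min. Its heat late against early value was 0.54 ± 0.28 (adjusted p = 0.288).

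LCB2 (YDR062W), the catalytic partner, had changes between -0.92 and 0.06 over all later arrays of the 3 series. It read 12.79, 12.82, 12.80, 12.66, 12.82, 12.78, 12.60 and 12.11 in the control and 12.91, 12.97, 12.91, 12.89, 12.89, 12.80, 12.73 and 12.47 in the cold. In heat it read 13.63, 13.35, 13.33, 13.32, 13.45, 13.53, 13.31 and 12.71. Every heat array after the start was lower than 13.63, by 0.10 to 0.92, and the 24 h array was the lowest of each series. The heat early value was -0.27 ± 0.19 (adjusted p = 0.681) and the heat against cold early value -0.31 ± 0.19 (adjusted p = 0.274).

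TSC10 (YBR265W), the reductase of the newly made base, read 11.70, 11.94, 11.98, 12.02, 12.10, 11.98, 11.64 and 11.70 in the cold. In the control it read 11.94, 11.94, 11.80, 11.63, 11.77, 11.81, 11.46 and 10.15, a 3.45-fold lower level at 24 h than at 0 min. In heat it read 11.03, 10.75, 10.90, 10.71, 10.86, 10.82, 10.21 and 9.65, which is 2.59-fold lower at 24 h. The 5 cold arrays from 15 min to 4 h were above the cold start by 0.25 to 0.41, and every later heat array was below the heat start. The control was also below its own start on every array from 30 min on, so the lower heat arrays are not particular to heat. None of these differences passed: cold early was 0.43 ± 0.23 (adjusted p = 0.587), cold late 0.46 ± 0.23 (adjusted p = 0.278), heat against cold early -0.53 ± 0.23 (adjusted p = 0.136) and heat against cold late -0.61 ± 0.23 (adjusted p = 0.131). At 24 h the cold array of TSC10 was 0.01 from its start, whereas LCB1 and TSC10 were 1.15 and 1.79 lower in the control.

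SUR2 (YDR297W), the hydroxylase that makes phytosphingosine, gave the highest fitted value of the 10 genes in 4 comparisons (early and late cold, late heat, and late against early heat), although none passed. In the cold it read 11.86, 12.27, 12.36, 12.50, 12.70, 12.65, 12.46 and 12.18, so that it was above its start on all 7 later arrays, by 0.84 at 2 h at most. In heat it read 12.94, 12.66, 11.86, 12.68, 13.51, 13.54, 13.50 and 13.94. It was thus 2.12-fold lower than at the start at 30 min, and the 4 heat arrays from 2 h on lay above all 4 earlier ones. In the control it read 12.02, 11.98, 11.82, 11.54, 12.08, 12.05, 11.68 and 13.24, with the 24 h array 1.22 above the start. The direction at 24 h was thus the same in the 3 series, 1.22 higher in the control, 1.00 higher in heat and 0.32 higher in cold.

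The fitted values of SUR2 were 0.76 ± 0.38 in cold early (adjusted p = 0.554), 0.83 ± 0.38 in cold late (adjusted p = 0.234) and 0.66 ± 0.38 in heat late (adjusted p = 0.947). Heat late stood 0.96 ± 0.27 above heat early (adjusted p = 0.146). That value passed in 1 of 14 alternatives, without subtracting the control (1.12, adjusted p = 0.0023). The heat early change lay 1.06 ± 0.38 under the cold early one, given as -1.06 in the fit (adjusted p = 0.0728). The early heat value depends on the 30 min array, where the change was -1.08, against -0.29 at 15 min and -0.26 at 60 min.

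The ceramide synthases LAG1 (YHL003C) and LAC1 (YKL008C), which carry out the same reaction, were almost flat through 8 h and separated at 24 h. LAG1 read 11.66, 11.54, 11.70, 11.74, 11.69, 11.79, 11.70 and 9.48 in the control. In heat it read 11.92, 12.08, 11.93, 11.80, 11.97, 11.95, 11.58 and 9.94, and in cold 11.81, 11.73, 11.71, 11.69, 11.70, 11.68, 11.53 and 11.48. Up to 8 h its changes lay between -0.34 and 0.16, and at 24 h LAG1 was 4.54-fold lower in the control and 3.95-fold lower in heat, but 0.33 lower on the log2 scale in cold. LAC1 read 12.46, 12.40, 12.33, 12.25, 12.44, 12.42, 12.38 and 12.30 in the control and 11.78, 11.42, 11.66, 11.77, 11.99, 11.61, 11.30 and 11.62 in heat. In cold it read 12.52, 12.56, 12.47, 12.41, 12.40, 12.42, 12.19 and 11.81. At 24 h LAC1 was 0.16 lower than at its start in control and heat and 0.71 lower in cold, the reverse of the order seen for LAG1.

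The change of LAG1 minus that of LAC1 lay between -0.16 and 0.53 on all arrays through 8 h. On the 24 h arrays it reached -2.02 in the control, a 4.06-fold difference, and -1.82 in heat, a 3.53-fold difference, against 0.38 in cold. Each of these is a single array, and no test was made. In the limma fit the early and late values of both genes lay between -0.24 and 0.09 against the control in either series.

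AUR1 (YKL004W), which makes inositol phosphorylceramide and is the target of the antifungal aureobasidin A, was lower after the heat shift on every array. It read 11.14, 10.36, 10.22, 10.11, 10.77, 9.59, 10.76 and 11.03 in heat, and its changes were -0.77, -0.91 and -1.02 at 15, 30 and 60 min and -1.54 at 4 h, with the 2 h and 8 h arrays nearer the start at -0.36 and -0.38. In cold it read 12.61, 12.85, 12.93, 12.79, 12.62, 12.30, 11.72 and 12.12, first above and then, from 4 h, below the start. The control read 12.46, 12.42, 12.29, 12.25, 12.41, 12.22, 11.95 and 13.52, so that the 24 h array was the highest of all 24. The heat early value of -0.76 ± 0.50 (adjusted p = 0.668) and the heat against cold early value of -1.15 ± 0.50 (adjusted p = 0.131) did not pass. The second passed in 3 of 14 alternatives: without the 8 h arrays (adjusted p = 0.0387), with array weights (adjusted p = 0.00338) and without the 0 min baseline (adjusted p = 1.37e-06). The fit with array weights did not reach its convergence tolerance. Leaving out the 0 min baseline lets in the offset of the heat series at 0 min (heat minus control -1.32 for AUR1), so that value is not a change within the heat series. AUR1 had the widest standard error of the 10 genes, 0.50, against a median of 0.343 over all genes in the same comparisons. Cold late against early was -0.51 ± 0.35 (adjusted p = 0.299).

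The Orm genes, which encode the brakes on serine palmitoyltransferase, stood on opposite sides of their start in the cold from 60 min on, ORM2 above and ORM1 below. In the control they did so on every later array but that of 60 min, with smaller changes before 24 h. Through 8 h the control changes were at most 0.08 for ORM2 and reached -0.39 for ORM1. ORM2 (YLR350W) read 12.28, 12.24, 12.28, 12.67, 13.05, 13.29, 13.15 and 13.35 over the cold arrays. The 3 late cold arrays, from 13.05 to 13.29, were all above the 3 early ones, from 12.24 to 12.67, and above the control arrays of the same times, which read 12.43, 12.42 and 12.40. Its distance above the start was 0.39 by 60 min, then 0.77, 1.01, 0.87 and 1.07 on the arrays from 2 h to 24 h. In the limma fit ORM2 rose from the early to the late cold window by 0.74 ± 0.21 (adjusted p = 0.0287), while 13.2% of all genes were called higher in that comparison. The call was lost when 24 h was counted as late (0.51, adjusted p = 0.242) and when 15 min, 30 min, 4 h or 8 h was left out in turn from the 3 series (adjusted p = 0.0745 to 0.127). Against the 0 min arrays the late value was 0.82 ± 0.30 (adjusted p = 0.151). That value passed in 3 of 15 alternatives, 1 of them without subtracting the control (0.88, adjusted p = 0.0134). Over the early cold arrays ORM2 stood at -0.04, 0.00 and 0.39 from its start. The mating-type markers MFA1 and MFA2 rose in the same comparison, by 0.91 ± 0.29 (adjusted p = 0.0413) and 1.32 ± 0.37 (adjusted p = 0.0246), while STE2 at 0.64 ± 0.39 did not pass (adjusted p = 0.241). The sporulation gene SPR28, at a dim level, was also called at 0.77 ± 0.19 (adjusted p = 0.0161), and SPS1 and IME1 were not. Their part in the ORM2 result was not tested.

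ORM1 (YGR038W) was below its start on every later cold array. It read 12.02, 11.85, 11.73, 11.58, 11.54, 11.48, 11.14 and 10.77, each array lower than the one before, with a 2.37-fold lower level at 24 h. In the control it read 11.93, 11.90, 11.90, 11.76, 11.85, 11.82, 11.54 and 10.22. In heat it read 11.96, 11.77, 11.75, 11.77, 11.52, 11.60, 10.69 and 11.09, and the 8 h array was 2.40-fold below the start. The cold late value of -0.44 ± 0.26 (adjusted p = 0.382) and the heat late value of -0.49 ± 0.26 (adjusted p = 0.934) did not pass, and heat late stood at -0.37 ± 0.19 against heat early (adjusted p = 0.272).

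The change of ORM2 minus that of ORM1 in cold was 0.12, 0.29, 0.83, 1.26, 1.54, 1.75 and 2.31 from 15 min to 24 h, larger at each time than at the one before. In the control it stayed between 0.07 and 0.43 through 8 h and then was 2.85 at 24 h, with ORM2 1.15 above and ORM1 1.71 below the start. Cold at 24 h thus reached a 4.96-fold and the control a 7.23-fold shift of the pair. Across the 7 later arrays the changes of the pair had r = -0.797 in cold and r = -0.975 in the control, the latter set largely by the 24 h array. In heat r was 0.35, with a dim ORM2.

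In the heat series ORM2 read 6.36, 6.06, 6.73, 6.49, 5.78, 6.05, 6.08 and 6.13, against 12.35 on the control 0 min array. The gap to the control was present before the shift. These arrays give a bound for ORM2, not a level, and changes along them, between -0.58 and 0.37, have no reading. The heat against cold late call of ORM2, -1.27 ± 0.30 (adjusted p = 0.0347), rests on these arrays, and so do its heat late value of -0.45 ± 0.30 (adjusted p = 0.987) and its heat late against early value of -0.49 ± 0.21 (adjusted p = 0.232). ORM1, measured on the same arrays, differed between heat and control at 0 min by 0.02.

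**Figure D4:**
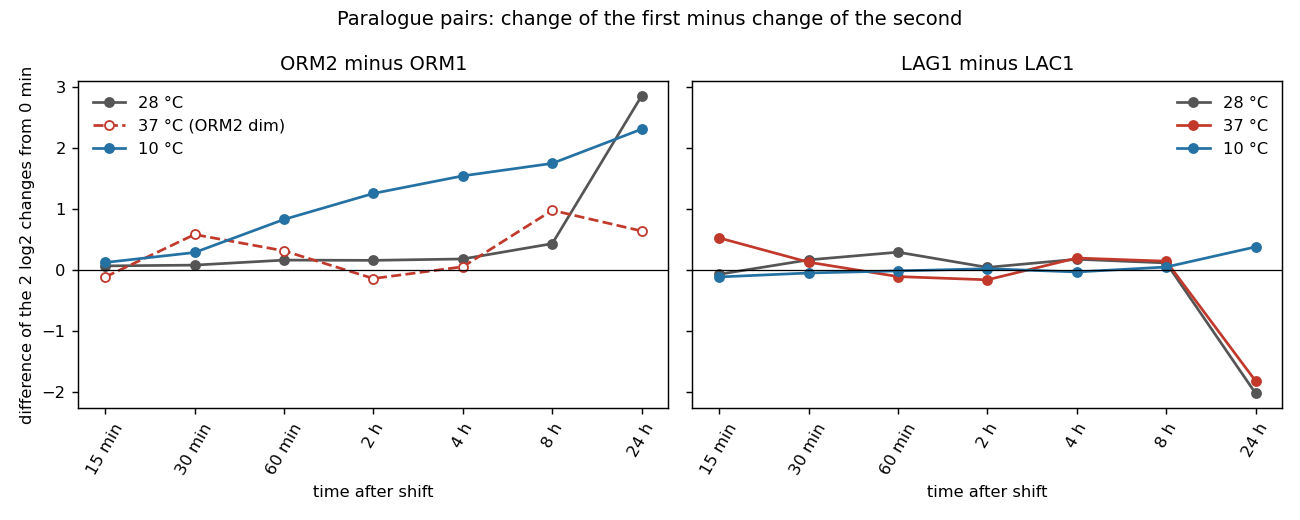
Difference between the log2 changes of paralogues from their own 0 min arrays (vertical axis) at 7 times (horizontal axis) in the 3 series, ORM2 minus ORM1 on the left and LAG1 minus LAC1 on the right. The ORM pair differs by more at each later time in cold, up to 2.31, and by 2.85 at 24 h in the control after at most 0.43 before, and the LAG1 and LAC1 pair parts at 24 h in control and heat; open points mark heat, where ORM2 was dim.

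ISC1 (YER019W), which returns complex sphingolipids to ceramide, was lower in early heat and higher in late heat. It read 11.95, 11.78, 11.45, 11.49, 12.11, 12.31, 12.22 and 10.41 in heat, so that the 3 late arrays were above the start and above all 3 early ones. The control read 10.92, 11.03, 10.74, 10.49, 10.77, 10.64, 10.37 and 9.07, and cold read 10.71, 10.90, 10.80, 10.80, 10.98, 10.95, 10.63 and 9.96. At 24 h it was lower than at the start in all 3 series, 3.60-fold in the control and 2.91-fold in heat. Heat late against early was 0.80 ± 0.18 (adjusted p = 0.0919), heat late 0.59 ± 0.25 (adjusted p = 0.872), cold late 0.47 ± 0.25 (adjusted p = 0.318) and heat against cold early -0.50 ± 0.25 (adjusted p = 0.193). ISC1 therefore missed the threshold in each comparison. Heat late against early passed in 3 of 14 alternatives: without the 2 h arrays (adjusted p = 0.0376), with array weights (adjusted p = 0.0305) and against its own series alone (0.64, adjusted p = 0.011). The fit with array weights did not reach its convergence tolerance. Over the 14 alternatives the adjusted p of this limma comparison reached 0.521.

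Over all 21 changes from 0 min (7 times in 3 series), the 10 genes did not follow a common course. The 45 pairs had a median Pearson r of 0.17, from -0.619 between SUR2 and ORM1 to 0.823 between LCB2 and LAG1, and 27 pairs were positive. LCB2, TSC10, LAG1 and ISC1 were alike, with r between 0.798 and 0.823 for each pair, and each of these 4 was lower at 24 h than at the start in both control and heat. These correlations share their 0 min arrays and rest largely on the 24 h arrays, so they are given as a description. Among all other genes, the closest course was that of DUG1, a dipeptidase gene, for LAG1 (r = 0.972), and of GET3, which serves the insertion of tail-anchored proteins, for ORM1 (r = 0.972). TSC10 was closest to CST26 (r = 0.956), SUR2 to MAP1, a methionine aminopeptidase gene (r = 0.956), and LCB2 to SEC7, a Golgi exchange factor gene (r = 0.948). For ISC1 the closest was the acetyl-CoA synthetase gene ACS2 (r = 0.934), for LCB1 CSR1 (r = 0.926), for ORM2 the citrate synthase gene CIT3 (r = 0.914) and for AUR1 RIA1 (r = 0.892). LAC1, the gene with the smallest range over the 24 arrays (1.25), had no close match, its nearest being the sterol gene ERG4 at r = 0.706.

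Of 38 further genes of sphingolipid metabolism and its control, 16 were called in cold late against early, 12 higher and 4 lower, beside 1 of the 10 synthesis genes and 24.7% of all genes. Their median change there was 0.31, against -0.03 for the 10 genes and 0.01 for all genes. Among genes of TORC2, its effectors and related kinases, 8 of 16 rose and 2 fell. In that comparison 13.2% of all genes were called higher. YPK1, a kinase that phosphorylates the Orm proteins, rose by 0.86 ± 0.22 (adjusted p = 0.0191), from 11.12, 11.18 and 11.31 on the early to 11.71, 12.00 and 12.10 on the late cold arrays. Its paralogue YPK2 rose by 0.75 ± 0.24 (adjusted p = 0.0438), and PKH1 and PKH3, of the kinases that activate them, by 0.77 and 0.69 (adjusted p = 0.0211 and 0.0303). The flippase kinase genes KIN82 and FPK1 rose by 2.20 ± 0.33 (adjusted p = 0.00315) and 0.91 ± 0.23 (adjusted p = 0.0163). The TORC2 genes were split, with AVO2 (1.00) and the TORC2 effector SLM1 (0.74) higher and AVO1 (-0.85) and BIT61 (-0.64) lower. Against the 0 min arrays none of the 8 higher genes passed in cold early (adjusted p = 0.348 to 0.979) or cold late (adjusted p = 0.225 to 0.989). Several lay below the start early and near it late: the cold early values were -0.90 for PKH1, -0.74 for YPK2 and -0.62 for SLM1, and the cold late values -0.13, 0.01 and 0.12. KIN82 stood at -1.22 early and 0.99 late, and YPK1 at -0.14 and 0.72.

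The same comparison called 2 of the 3 genes of ceramide hydroxylation and ceramidases and 1 of the 6 of long-chain base phosphate metabolism and export. Of the head group genes it called 1 higher and 1 lower of 5, and of the elongation genes 1 lower of 6. These stand beside 24.7% of all genes called, so breakdown and export are not set apart as a group. Both alkaline ceramidases, which hydrolyse ceramide, rose, YPC1 by 2.32 ± 0.45 (adjusted p = 0.00671) and YDC1 by 1.04 ± 0.31 (adjusted p = 0.0324). YPC1 read 11.46 at the start of cold, 9.82, 9.73 and 10.54 on the early arrays and 11.77, 12.40 and 12.63 on the late ones, so that it lay below its start early and above it late. RSB1, which exports long-chain bases, rose by 1.67 ± 0.29 (adjusted p = 0.00444) after a similar early dip, from 9.90 to 9.15 at 30 min and then 10.90 at 8 h. The lowest early cold change of ORM2, by contrast, was -0.04. Of the head group genes SUR1, a mannosyltransferase subunit, rose by 0.67 ± 0.21 (adjusted p = 0.0361), and KEI1, the partner subunit of Aur1, fell by 0.94 on the log2 scale (SE 0.31, adjusted p = 0.0457). KEI1 read 10.76, 10.42 and 10.36 on the late cold arrays against 11.60 at the start, and AUR1 on the same arrays read 12.62, 12.30 and 11.72 against 12.61. PHS1, the dehydratase of very long chain fatty acid synthesis, fell by 1.07 (SE 0.20, adjusted p = 0.00552).

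**Figure D5:**
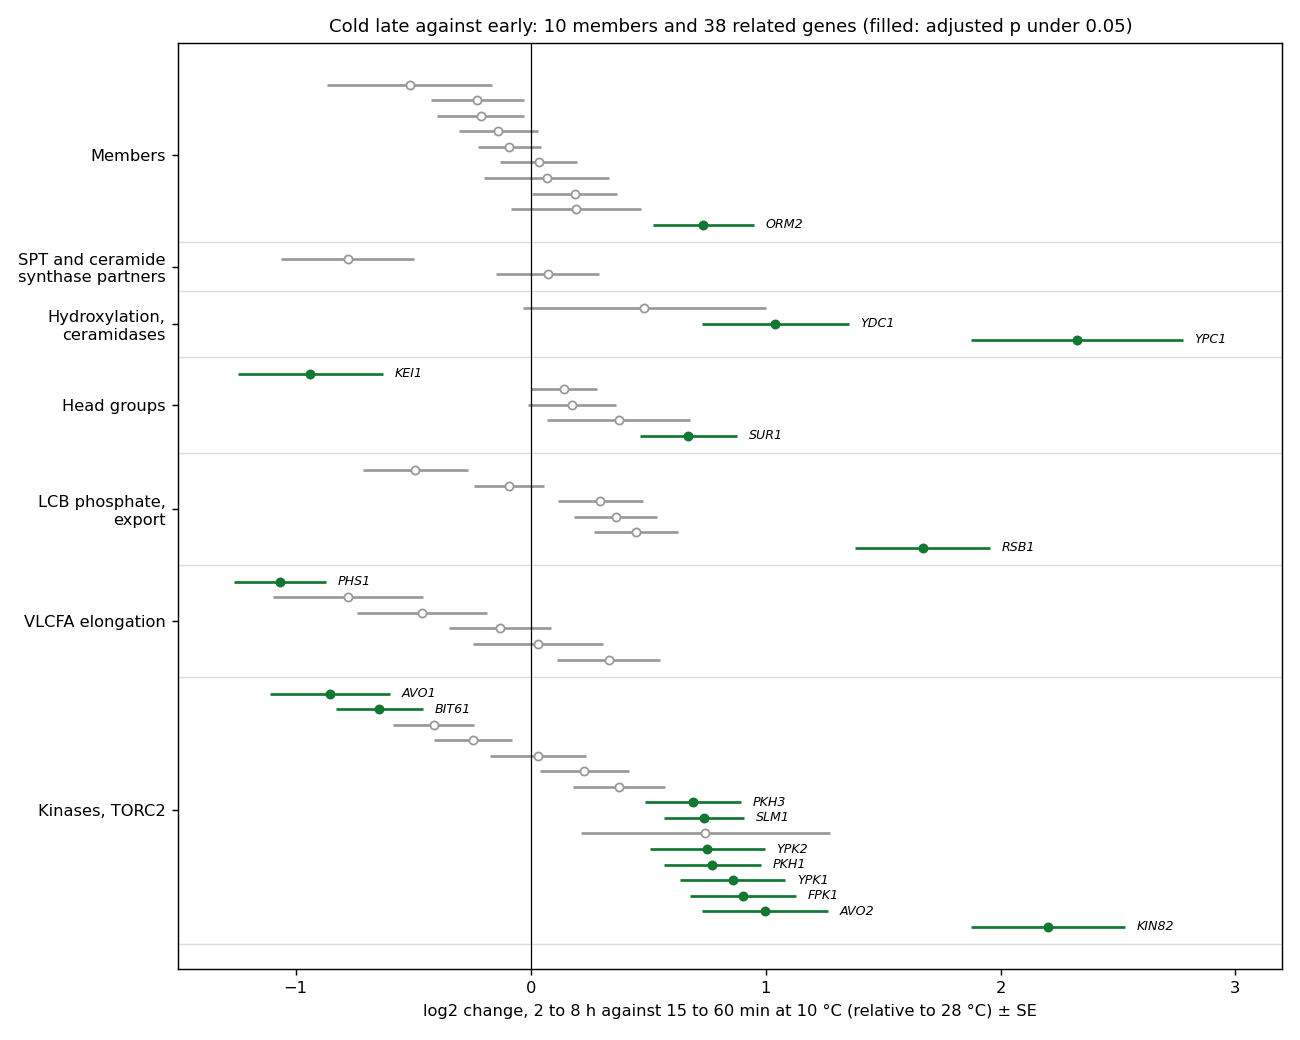
limma estimates of cold late against early (horizontal axis, log2 change relative to 28 °C; bars, 1 standard error) for the 10 genes and the 38 related genes, grouped by role and ordered by value within each group. Filled, named points have an adjusted p under 0.05: ORM2 alone among the 10 and 16 of the 38, of which KEI1, PHS1, AVO1 and BIT61 were lower.

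Set against cold, early heat was higher in 10 and lower in 1 of the 38 genes, beside none of the 10 synthesis genes. Of all 5449 genes, 426 were called higher and 459 lower, 16.2% in either direction. The higher genes among the 38 were YPC1 (2.57), KIN82 (2.28), PKH1 (1.70), RSB1 (1.66), SLM1 (1.40), AVO2 (1.33), YPK2 (1.31), PKH2 (1.01), CSH1 (0.99) and LST8 (0.89), and the fatty acid elongase ELO3 was lower (-1.65). Each value is a difference that also holds the cold change. For YPC1 cold early was -1.63 and heat early 0.93, while for RSB1 they were -0.52 and 1.13. Late, where 6.5% of all genes were called, CSH1 was higher (0.76) and ACB1, which binds acyl-CoA, lower (-1.18). No related gene was called in the other comparisons. The genes with the largest mean change from 0 min through 8 h in their lists were, in heat, RSB1 (0.94), PKH1 (0.84), YPC1 (0.79), CSH1 (0.65), ELO3 (-0.95) and LIP1, a ceramide synthase subunit (-0.42). In cold they were BIT2 (0.97), PHS1 (-0.88), KEI1 (-0.67), TSC3, which stimulates serine palmitoyltransferase (-0.59), YPC1 (-0.31) and LCB5 (0.20). In the control they were YPK2 (0.46), RSB1 (-0.37), ELO2 (-0.23), YPC1 (0.16), TSC3 (0.16) and SUR1 (0.06).

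On the 24 h control array the 6 genes of very long chain fatty acid elongation were all at least 2-fold lower, against 20.5% of all genes: the changes were -4.47 for ELO2, -3.73 for ELO3, -3.28 for PHS1, -2.72 for IFA38, -2.54 for ACB1 and -1.42 for TSC13. All 6 were 2-fold lower in heat as well (17.2% of all genes), and 4 of the 6 in cold (13.0%). Of the ceramide synthases, which use their product, LAG1 stood at -2.18, -1.98 and -0.33 in control, heat and cold at 24 h and LAC1 at -0.16, -0.16 and -0.71. Synthesis genes thus stood on both sides of their start at 24 h in the control, with SUR2 and AUR1 higher and LCB1, TSC10 and LAG1 lower.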

How the data were processed

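Expression values of 24 one-colour arrays were used as deposited. The authors deposited log2 values, 1 per probe set and array, made with RMA according to the submitters' processing notes. Neither its version nor whether it ran on all arrays at once is given in the sources used here. They ran from 3.49 to 15.1 and were not normalized again. RMA cannot show a shift of total RNA and compresses differences near background. Of 10928 probe sets, 5498 have 1 yeast gene in the platform annotation, 1 has several, 1746 belong to another species and 3683 are unlisted. Values of 47 genes with several probe sets were averaged, leaving 5449. Symbols and locus tags came from RefSeq (assembly R64).

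limma 3.58.1 in R 4.3.3 (lmFit, eBayes, two-sided) was fitted to all 24 arrays with time as a block and terms for heat and cold at 0 min, early, late and 24 h (residual degrees of freedom 8, prior 3.41). Times of a window stand in for replicates, and comparisons with 0 min rest on 1 such array per series. The number of arrays limits the precision. The fit was tested on simulated data. Alternatives changed the 0 min baseline, the late window, the series in the fit, the normalization, array weights, the dim and suffixed probe sets and single times.

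The 10 genes, the lists and the tests were chosen with earlier results of these data known. Named related genes are those past the threshold and, per list and series, the 1 with the largest mean change. For each of the 10 genes the 1 gene with the highest r is named. Fitted values are printed for the 29 gene and comparison combinations with an unadjusted p under 0.2. Promoter and protein sequences were not used here.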

Additional observations from a re-analysis of the deposited data

Results flagged for a closer look

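For 5 of the 10 genes every early heat array lay below its own 0 min level and every early cold array above it, so that these changes, from which the control was not subtracted, had opposite signs at all 3 times. How many of all genes show this pattern was not counted, so it is not read as a trait of the 10 genes. The heat minus cold mean change was -1.15 for AUR1, -1.06 for SUR2, -0.54 for LCB1, -0.53 for TSC10 and -0.50 for ISC1. None of these differences passed the limma test of heat against cold early (adjusted p between 0.0728 and 0.357 for the 5 genes), in which 16.2% of all genes were called. All heat arrays were made with another amplification kit. The heat minus cold change of ORM2 in the late window, -1.27, did pass, and it rests on heat arrays on which the probe set was dim.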

How the results depend on the processing

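Only 1 array exists per temperature and time, so tests rest on times of a window, the heat offset at 0 min and the heat kit cannot be told apart, and ORM2 is dim in heat. The cause of the shifts below was not tested. For the cold rise of ORM2, late against early, adjusted p ran from 8.94e-07 to 0.242 over 14 alternatives. Of these 9 kept the call, and the direction held in all 14. With single times left out, which does alter the ORM2 data, adjusted p ran from 0.0328 to 0.127. The heat against cold late call of ORM2 held in 10 of 14 alternatives. Its adjusted p was up to 0.203 when 24 h was counted as late and up to 0.13 with single times left out. Not all alternatives test these calls. ORM2 has 1 probe set, not suffixed, with a mean level of 10.51. Leaving out dim genes or suffixed probe sets therefore left its values unchanged. The fit with array weights, also among the alternatives, did not reach its convergence tolerance. Over all 80 gene and comparison values the sign changed in 65 of 1160 combinations with a setting, in 59 of them where the value was smaller than its standard error. Of the 29 printed values, these 4 turned sign. Without the 0 min baseline LCB2 was 0.57 in heat early and 0.41 in heat against cold early, ISC1 0.74 and SUR2 0.0206 in heat against cold early.

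Counts of all genes past the threshold moved as follows, in the order heat early (1), heat late (3), cold early (0), cold late (0), late against early in heat (8) and in cold (1348), heat against cold early (885) and heat against cold late (354). With array weights, a fit that did not reach its convergence tolerance, they were 672, 222, 1811, 2794, 197, 4161, 2732 and 2209. Without the 0 min baseline heat early gave 3994, heat late 4141, cold early 1784, cold late 2236, heat against cold early 4245 and late 4141, and there SUR2 (0.67, adjusted p = 0.0142) and ORM2 (0.75, adjusted p = 0.0023) passed in cold late. With 24 h counted as late, heat early gave 0, heat late 1, late against early 4 in heat and 815 in cold, and heat against cold early 272 and late 6. Each series taken alone, without subtracting the control, gave 354 in heat early, 80 in heat late, 87 in cold early, 1077 in cold late, and late against early 1251 in heat and 2441 in cold. With 2 series in the fit heat early gave 0, heat late 0, cold early 7, and late against early 2 in heat and 2263 in cold. Renewed quantile normalization gave 0 in heat early, 1 in heat late, 47 in cold late and 2 in heat late against early, and heat late against early gave 3 without dim genes. Leaving out single times gave 0 to 4 in heat early, 2 to 4 in heat late, 0 to 32 in cold early, 0 to 418 in cold late, 1 to 149 late against early in heat and 240 to 1782 in cold, and 163 to 1265 early and 0 to 615 late in heat against cold.

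Over 7 arrays a series, values of the 10 genes at least 2-fold from the start numbered 8 at 28 °C, 7 at 37 °C and 3 at 10 °C. A 3-fold line gave 4, 1 and 0, a 1.5-fold line 15 in heat and 13 in cold, and the difference from the 28 °C array of the same time 32 in heat.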

Other observations

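Some marker values belong in no comparison of the 10 genes. Both α-factor pheromone genes were lower along the heat series, MF(ALPHA)1 going from 12.85 at 0 min to 8.48 at 24 h and MF(ALPHA)2 from 13.20 to 8.12. In the control at 24 h they stood at 11.84 and 10.34, and in cold at 14.46 and 12.38. SPS1, a kinase gene of sporulation, read 6.63 at 0 min and 8.98 at 24 h in cold, while in the control it read 6.68 and 6.48. SPR28, a septin gene of sporulation, read 4.86 at 0 min and 9.50 at 24 h in heat, against 4.49 and 4.75 in the control.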
